A study of Homo sapiens with 2 samples.

Results

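The MHC class I presentation genes of RKO cells were examined on 2 arrays, from the heavy chains of the HLA family to the light chain B2M, the peptide transporter TAP1 and TAP2 and the chaperone tapasin (TAPBP). The members were the 9 genes HLA-B, HLA-C, HLA-E, HLA-F, HLA-G, B2M, TAP1, TAP2 and TAPBP, taken by gene symbol from the platform annotation. They had 28 probe sets, of 41097 probe sets with 1 gene symbol and 54675 on the array, and 9 of 19775 genes. No probe set in the annotation used here listed a member together with another gene, so none had to be given apart as shared. RKO is an established human colon cancer line. The control array held RNA of cells infected with a retrovirus carrying a hairpin against luciferase (sh-Luci). The other array held RNA of cells with a hairpin (sh-BCLAF1-L#1) against the L form of BCLAF1, a nuclear protein. All cells received fresh medium 24 h after infection and puromycin at 2 µg/ml for 72 to 96 h, so both groups carry a virus and the drug selection. Each group had 1 array and a single hairpin, so no value has a replicate check and p-values were not computed. The sources used here do not say whether the selected cells were a pool or a clone.

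MHC class I molecules show fragments of intracellular proteins to cytotoxic T cells and natural killer cells. A heavy chain pairs with beta-2-microglobulin in the endoplasmic reticulum and is held by tapasin next to the TAP transporter, which pumps in peptides cut by the proteasome. HLA-B and HLA-C are classical, highly polymorphic heavy chains, and HLA-E, HLA-F and HLA-G are non-classical ones. The genes of this system are known to respond to interferons through an interferon-stimulated response element (ISRE). NF-kappaB and CCAAT-binding factors are also known regulators of classical heavy chain genes.

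The HLA heavy chain probe sets read lower on the knockdown array, by a small amount. All 16 past the filter on low values were lower there, against 46.1% of all probe sets and 56.4% of those at intensities of 2000 and above. Their median log2 difference was -0.22, which left 86.0% of the control intensity. Of the 16, 15 have names ending in _x_at and can read one another's transcripts, so they are not separate measurements. The remaining one, an HLA-E set, left 98.8% of the control. HLA-B, HLA-G and most HLA-C probe sets had the larger differences, and HLA-E the smallest by the median over its probe sets. B2M, the partner of every heavy chain, left 96.1% and 97.1% on its bright probe sets, and TAP1 read 107% of the control. The probe sets of TAP2 and TAPBP disagreed among themselves. No member probe set differed by 1.5-fold in either direction.

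The promoters of 8 members are shown first, as a description, and their part in the differences was not tested. It was known by then that HLA-B and HLA-C probe sets read lower and that B2M and TAP1 were not lower to the same extent. All HLA-B and HLA-C sets are _x_at sets, so they do not show 2 genes lower separately. The letters come from RefSeq on GRCh38.p14, read 5′ to 3′ on the strand of the gene and ending before the annotated start. Capitals mark matches on either strand to the ISRE core (GAAA and GAAA with any 2 bases between them), a shorter form GAANNGAAA, a kappaB form GGGNNTTCC and the CCAAT box, and overlapping matches run together. The shorter ISRE form was added after the promoters had been seen. For HLA-G, with 3 starts in the table, the window lies before the third start, and for TAP1, with 2, before the first listed. The other starts of HLA-G and TAP1 had no match to any motif searched, so the counts of matches refer to the starts shown.
HLA-B: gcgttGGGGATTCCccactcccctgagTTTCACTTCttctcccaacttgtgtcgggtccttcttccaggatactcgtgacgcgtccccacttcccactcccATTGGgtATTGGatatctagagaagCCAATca
HLA-C: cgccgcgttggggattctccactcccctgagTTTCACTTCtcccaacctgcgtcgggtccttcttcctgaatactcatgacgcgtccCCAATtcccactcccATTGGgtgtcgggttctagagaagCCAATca
HLA-F: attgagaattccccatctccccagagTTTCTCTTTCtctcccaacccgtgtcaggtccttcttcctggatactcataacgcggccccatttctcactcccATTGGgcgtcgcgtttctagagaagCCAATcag
HLA-G: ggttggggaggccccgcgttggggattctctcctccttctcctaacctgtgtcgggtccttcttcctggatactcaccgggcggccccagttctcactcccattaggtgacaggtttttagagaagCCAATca
B2M: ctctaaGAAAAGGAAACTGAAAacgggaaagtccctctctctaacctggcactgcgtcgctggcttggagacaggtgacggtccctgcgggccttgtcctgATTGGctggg
TAP1: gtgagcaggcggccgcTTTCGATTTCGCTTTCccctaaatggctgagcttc
TAP2: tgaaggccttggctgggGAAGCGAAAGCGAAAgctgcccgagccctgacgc
TAPBP: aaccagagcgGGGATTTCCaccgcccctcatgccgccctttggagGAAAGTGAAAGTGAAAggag

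The HLA-B window is chr6:31357229-31357361 on the minus strand, and that of HLA-C is chr6:31272142-31272274, also minus. Those of HLA-F and HLA-G are chr6:29723252-29723384 and chr6:29827643-29827775 on the plus strand. The B2M window is chr15:44711367-44711477 on the plus strand. TAP1 (chr6:32853804-32853854), TAP2 (chr6:32838769-32838819) and TAPBP (chr6:33314079-33314143) lie on the minus strand. The ISRE core matched in HLA-F, B2M, TAP1, TAP2 and TAPBP, against 3.02% of all 35116 promoters over the 250 bases before the start. The shorter form matched in HLA-B, HLA-C and TAP2. It was chosen after these promoters had been seen, so the 6.56% of all promoters with a match is given for scale only. The kappaB form was found in HLA-B and TAPBP (5.78% of promoters). Only this form of 9 bases was searched, so a promoter without a match, such as B2M, may hold a longer kappaB form. CCAAT was found in HLA-B, HLA-C, HLA-F, HLA-G, B2M and, outside its printed window, TAP1 (32% of promoters). A gamma-activated site in the strong form TTCCNGGAA, which 0.968% of promoters hold, was found in none of these 8 promoters. The 250 bases before the start were 88.8% identical between HLA-B and HLA-C, and 72.4% between HLA-B and HLA-G. A match is a description of letters and not of a bound site. The ISRE core had no match in HLA-B and HLA-C, which read lower. It matched in HLA-F, which also read lower (-0.14 and -0.16), and in TAP1, which did not (0.09). It also matched in B2M (-0.06 and -0.04 on its bright probe sets) and in TAP2 and TAPBP, whose probe sets disagreed. Whether matches go with differences was not tested. HLA-B and HLA-C matched only the shorter form, so their matches cannot be set against those of the other genes. Neither form was found before the HLA-G start shown.

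**Figure D1:**
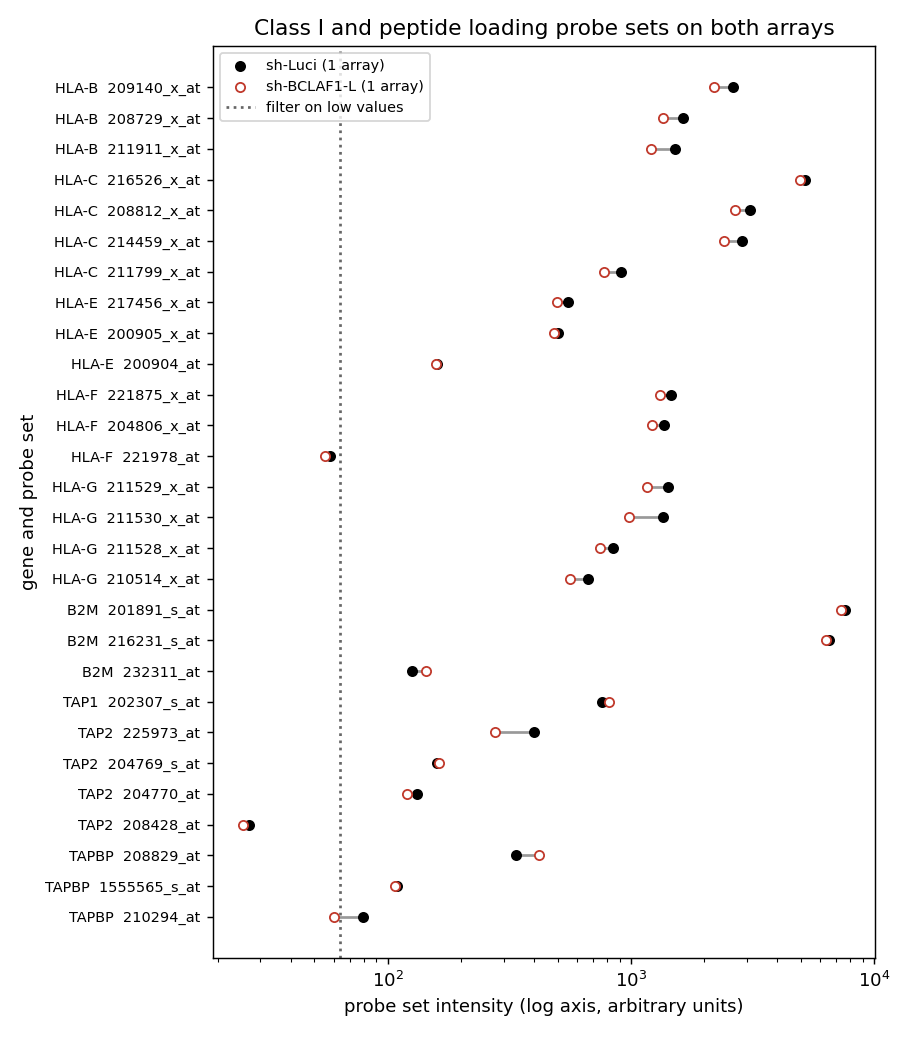
Intensity of the 28 member probe sets (log axis, arbitrary units) on the sh-Luci array (black) and the sh-BCLAF1-L array (open red), 1 array each, with the filter on low values at 63.7 (dotted). Every HLA probe set has its open point to the left of the black one, whereas B2M, TAP1, TAP2 and TAPBP have points on either side.

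Intensities were compared as log2(value + 1), and each difference is sh-BCLAF1-L minus sh-Luci. A probe set passed the filter when its mean log2 value was at or above the 40th percentile, an intensity of 63.7. Of the 28 member probe sets, 26 passed, and every gene kept at least 1. The probe sets that did not pass were the HLA-F set 221978_at (57.8 and 55.4) and the TAP2 set 208428_at (26.9 and 25.4). Levels of different probe sets are not comparable on an array, so only the arrays are compared. Among 26452 probe sets past the filter with 1 gene symbol, the median difference was 0.01, with the central 95% from -0.33 to 0.38. The pooled SD of the differences within a gene was 0.16 on the log2 scale over 6752 genes. This SD is the only error measured here, and culture and array effects are not part of it.

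HLA-B was lower on all 3 probe sets, which lay close together. Its brightest probe set, 209140_x_at, read 2628 with sh-Luci and 2199 with sh-BCLAF1-L, or 83.7% of the control. The second, 208729_x_at, read 1642 and 1356. The third, 211911_x_at, read 1513 and 1211. The log2 differences were -0.26, -0.28 and -0.32, each larger than the SD within genes, and spread with an SD of 0.03. They stood at percentiles 5.43, 4.37 and 2.69 of all probe sets past the filter.

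HLA-C was lower on 4 of 4 probe sets, with an exception in size on the brightest. That probe set, 216526_x_at, read 5193 and 4980, a log2 difference of -0.06 that is smaller than the SD within genes. Probe set 208812_x_at read 3076 and 2685 (-0.20), 214459_x_at read 2870 and 2425 (-0.24) and 211799_x_at read 913 and 774 (-0.24). The latter 3 thus resembled the HLA-B values, and the brightest probe set lay closer to those of B2M. The median over the 4 was -0.22.

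HLA-G, a non-classical heavy chain best known from the placental trophoblast, had 4 probe sets, all lower. Probe set 211530_x_at read 1353 and 986, a 1.37-fold lower value and the only heavy chain probe set with a log2 difference beyond 0.322 in size, the lower of the fold thresholds used. Probe set 211529_x_at read 1420 and 1161 (-0.29), 210514_x_at read 668 and 565 (-0.24) and 211528_x_at read 847 and 750 (-0.17). The values spread over 0.28 on the log2 scale, more widely than those of HLA-B. All probe sets of HLA-G have names ending in _x_at, which Affymetrix gives to sets whose probes can also match other transcripts, so these readings cannot be given to HLA-G alone.

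HLA-F, a non-classical heavy chain, read 1460 and 1323 on 221875_x_at and 1369 and 1223 on 204806_x_at. The differences were -0.14 and -0.16, about 1 SD within genes. HLA-E, the ligand of the CD94/NKG2 receptors of natural killer cells, had the smallest median difference over probe sets among the heavy chains (-0.05), although by the brightest probe set alone HLA-C (-0.06) and HLA-F (-0.14) differed less than HLA-E (-0.16). Probe set 217456_x_at read 554 and 497 (-0.16), 200905_x_at read 501 and 483 (-0.05) and 200904_at read 160 and 158 (-0.02). The last was the only heavy chain probe set past the filter whose name does not end in _x_at, and it read nearly the same on both arrays.

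The other 15 of the 16 heavy chain probe sets past the filter were _x_at sets, with a median of -0.24. They can read one another's transcripts and are not separate measurements of 5 genes. Lower readings were not general among sets of this kind. Of all 2312 _x_at probe sets past the filter, 46% read lower with the BCLAF1-L hairpin, and their median was 0.02. HLA-J, a class I pseudogene outside the member list, was also read by an _x_at set, at 1271 and 1094 (-0.22). The antisense transcript HLA-F-AS1 read 1267 and 1198 (-0.08).

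**Figure D2:**
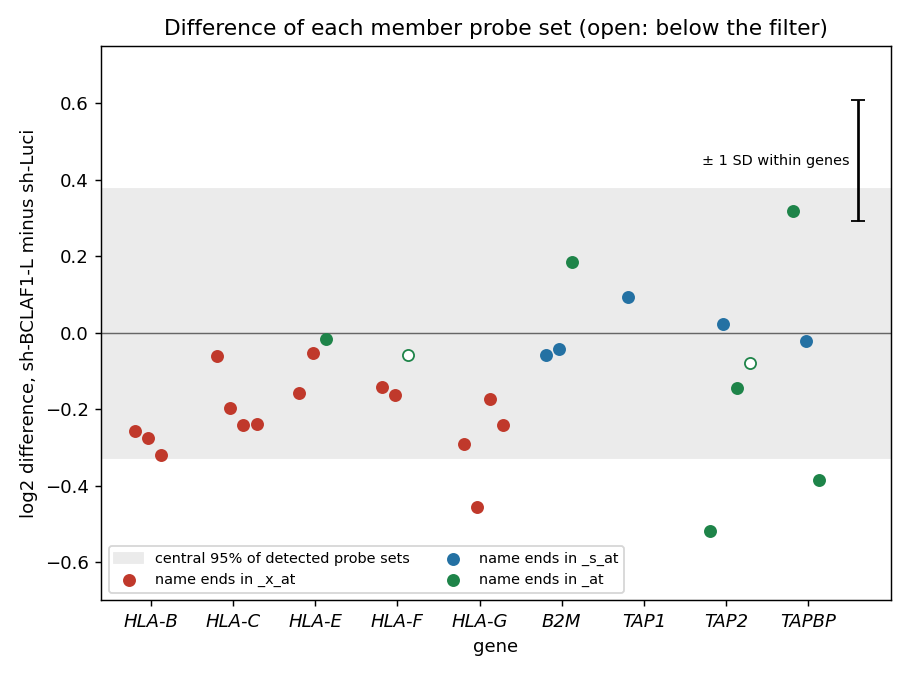
Log2 difference (sh-BCLAF1-L minus sh-Luci) of each member probe set by gene, coloured by the ending of its name. Open points lie below the filter, the grey band is the central 95% of probe sets past the filter (-0.33 to 0.38), and the bar is ± 1 SD within genes (0.16). HLA points lie below 0, with HLA-B, HLA-C and HLA-G mostly between -0.17 and -0.46, and TAP2 and TAPBP points lie far apart.

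B2M encodes beta-2-microglobulin, the light chain that all class I heavy chains need to reach the cell surface. It read 7592 and 7294 on 201891_s_at and 6538 and 6349 on 216231_s_at, differences of -0.06 and -0.04. Both are well under the SD within genes. The dim probe set 232311_at went the other way, at 127 and 144 (0.19).

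TAP1 and TAP2 form the peptide transporter. TAP1 had a single probe set, 202307_s_at, which read 761 and 812 (0.09, under the SD within genes). The brightest TAP2 probe set, 225973_at, read 399 and 278, a 1.43-fold lower value, and had the lowest difference of all members (-0.52, percentile 0.43). Its other probe sets did not follow this value. Probe set 204769_s_at read 160 and 163 (0.02), 204770_at read 133 and 120 (-0.14), and the set below the filter differed by -0.08. The 3 probe sets past the filter spread over 0.54 on the log2 scale, and their median was -0.14.

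TAPBP encodes tapasin, which bridges class I molecules to TAP and selects peptides. Its probe sets went in opposite directions. The brightest, 208829_at, read 337 and 421 (0.32, percentile 95.6), and 210294_at read 79.3 and 60.4 (-0.39, percentile 1.42), with the knockdown value under the filter intensity. The remaining set, 1555565_s_at, read 109 and 108 (-0.02). These span 0.71 on the log2 scale, so no direction can be given for TAPBP. The sources used here do not say which transcript forms these TAP2 and TAPBP probe sets read.

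Over the 9 genes, 22 of 26 probe sets past the filter were lower on the knockdown array, against 46.1% of all such probe sets. Their median was -0.16. Past a log2 difference of 0.322 in size, 3 were lower (in HLA-G, TAP2 and TAPBP, 1 each) and none higher, where the background was 2.67% lower and 4.29% higher. The HLA-B set 211911_x_at, at -0.321, lay just short of this threshold, as did the TAPBP set 208829_at on the higher side, at 0.319. At 1.5-fold, 0 were lower and 0 higher, against 0.231% and 0.465%. The heavy chains and the other members differed in how uniform they were. The 10 probe sets of B2M, TAP1, TAP2 and TAPBP past the filter were lower in 6 cases and had a median of -0.03. By the brightest probe set of each gene, 7 of 9 genes were lower, against 45% of 14507 genes. Of the 26 probe sets, 15 were heavy chain _x_at sets, and the brightest sets of the 5 heavy chain genes were all of this kind. These counts are therefore not counts of separate measurements. Without _s_at, _x_at and _a_at sets, 4 of 6 probe sets and 2 of 4 genes were lower.

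Differences spread less among bright probe sets, which bears on how the heavy chain values stand against other probe sets. Among 1107 probe sets at intensities of 2000 and above, the central 95% lay between -0.21 and 0.22, and the values of -0.26 for HLA-B and -0.24 for HLA-C lay below it. Among 1826 probe sets from 1000 to 2000, it lay between -0.29 and 0.31, and 1 HLA-B value (-0.32) and 2 HLA-G values (-0.29 and -0.46) lay below it. In the dimmer ranges the values below were those of TAP2 (-0.52) and TAPBP (-0.39). At 2000 and above 56.4% of probe sets were lower, with a median of -0.02, and in the other ranges 44.9% to 46.5% were lower. In all, 7 of 26 member probe sets lay below the central 95% of their own intensity range, 19 inside and 0 above, where 2.5% of all probe sets lie below by construction. Those of HLA-B, HLA-C and HLA-G were all _x_at sets that can read one another's transcripts. Those of TAP2 and TAPBP came from genes whose probe sets disagree. The 7 are thus not separate measurements to set against that share.

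**Figure D3:**
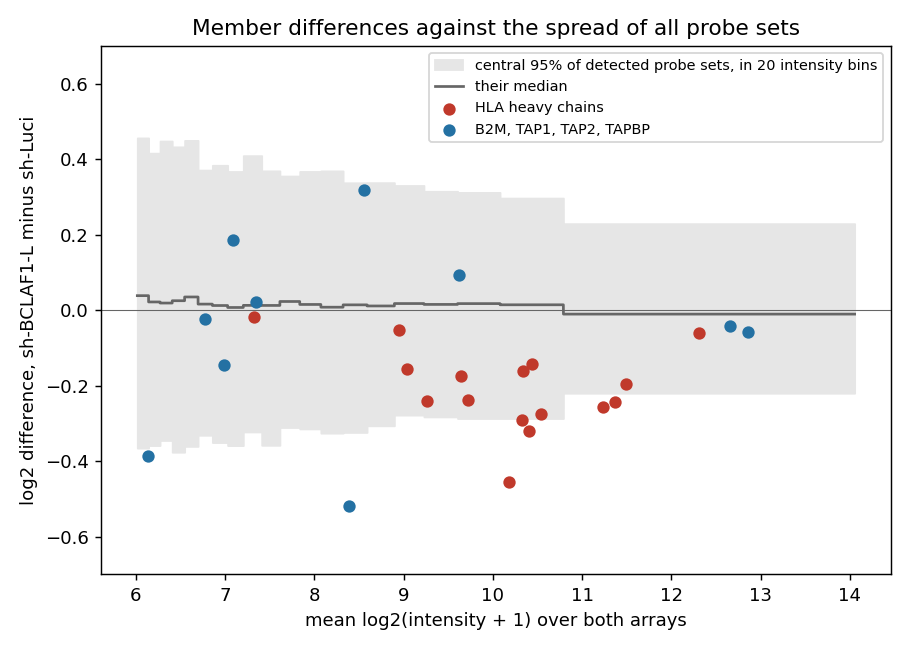
Log2 difference (sh-BCLAF1-L minus sh-Luci) of the 26 member probe sets past the filter against mean log2(intensity + 1), with the median (line) and central 95% (band) of all probe sets past the filter in bins of equal size. The band narrows with intensity. Most HLA-B, HLA-C and HLA-G points lie in its lower part or below it, whereas the brightest HLA-C point (-0.06) and the bright B2M points (-0.06 and -0.04) lie well inside it.

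All members other than B2M, which is on chromosome 15, lie in the MHC region of chromosome 6, but their neighbours there were not lower as a group. Of 92 genes between HLA-F and TAPBP that are not HLA genes and passed the filter, 44 were lower and 48 higher, with a median of 0.01. With HLA genes outside the member list included, 52 of 103 were lower and 51 higher, with a median of -0.01. None reached 1.5-fold. Those past 0.322 on the log2 scale were TRIM31 (-0.36) and VARS1 (-0.34) on the lower side and HCG27 (0.46), LTA (0.36) and TRIM10 (0.34) on the higher side. The gene PSMB9, which neighbours TAP1 and is transcribed away from it, read 421 and 439 (0.06), beside 0.09 for TAP1.

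The remaining steps of the pathway differed little. In the list of immunoproteasome and proteasome activator genes, 4 of 6 detected genes were lower and 2 higher. Their median was -0.11 (all genes past the filter, 0.02). The largest differences were those of PSME3 (-0.14), the catalytic subunit PSMB8 (-0.12) and the activator subunit PSME1 (-0.11). Among 10 detected genes for trimming and for partners of the loading complex, 5 were lower and 5 higher, with a median of -0.02. PDIA3, the thiol oxidoreductase bound to tapasin, differed by 0.15, the folding sensor UGGT1 by 0.15, and the trimming peptidase ERAP1 by -0.12 on its brightest probe set. A dimmer ERAP1 probe set read 176 and 270, or 1.53-fold higher, so the sets of ERAP1 disagree. None of the genes in these lists reached a log2 difference of 0.322 in size on its brightest probe set, against 2.21% lower and 4.16% higher among all genes.

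Regulators of class I transcription were mixed, with 7 of 13 detected genes lower and a median of -0.05. IRF9, the DNA-binding subunit of the interferon-activated ISGF3 complex, read 555 and 407 (-0.45) on its single probe set and was the only one past 0.322 in size. RFXANK, a subunit of the RFX complex that binds class I and class II promoters, read 258 and 215 (-0.26). The class II transactivator CIITA read 78.3 and 95.6 (0.29). NLRC5, the class I transactivator, was below the filter at 45.1 and 45.0. IRF1 read 201 and 223 on the brighter of its probe sets (0.15), and the dimmer one gave -0.19.

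Interferon receptors and their kinases were evenly divided, with 5 of 10 detected genes lower and a median of 0.02. IFNAR2, a chain of the type I interferon receptor, read 893 and 758 (-0.24), while its other probe sets differed by 0.07 and -0.21. IFNGR2, a chain of the interferon gamma receptor, differed by 0.15 and IFNLR1, of the lambda receptor, by -0.13. For scale, 10 IFIT, OAS and MX antiviral genes, a list added with their values known, were all lower, with a median of -0.56 and 4 of them at least 1.5-fold lower (0.2% of all genes lower and 0.434% higher). By the brightest probe set of each gene, the 5 heavy chains had a median of -0.16 and all genes 0.02. The difference between these groups was not tested.

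Class I-like molecules, which share the fold but have other ligands, did not read lower. Of 8 detected, 1 was lower and 7 higher, with a median of 0.11. HFE, which regulates iron uptake, differed by 0.25 on the brightest of its 13 probe sets past the filter, but these ran from -0.15 to 0.38, with 3 of them lower and a median of 0.08. The protein C receptor PROCR differed by 0.13 and the NKG2D ligand ULBP1 by -0.16. CD1D, which presents lipids, read 18.6 and 33.5, both below the filter. The NKG2D ligands MICA (798 and 821) and MICB (1170 and 1191) read close to equal. MHC class II genes, the mark of professional antigen-presenting cells, had 4 of 7 detected genes lower and a median of -0.05. HLA-DPB1 (-0.16), HLA-DOA (-0.15) and HLA-DMB (-0.12) differed most, and HLA-DRA was below the filter at 50.3 and 56.0.

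**Figure D4:**
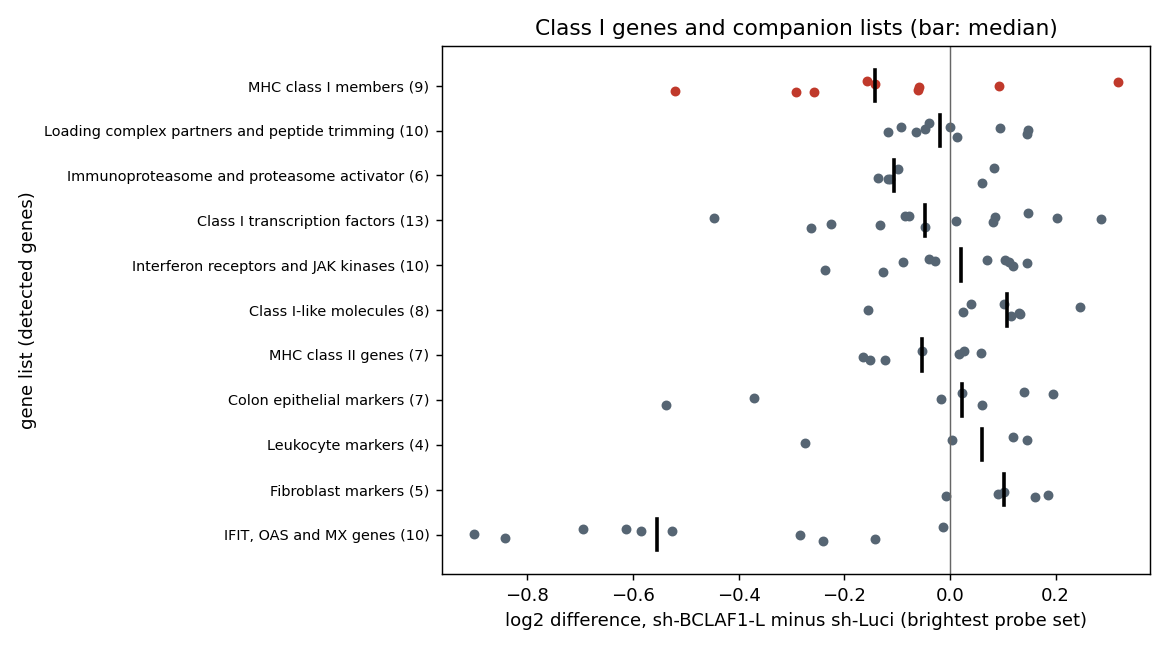
Log2 difference (sh-BCLAF1-L minus sh-Luci) of the brightest probe set of each detected gene, by list, with the number of genes in brackets and the median as a bar. The class I genes (red) have a median of -0.14, against -0.56 for the IFIT, OAS and MX genes and medians between -0.11 and 0.11 for the other lists.

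The arrays were checked on the knockdown, the cell type and the controls. BCLAF1 was lower on all 6 probe sets, which left from 33.8% to 70.2% of the control, with 37.7% on the brightest. Which of these sets read the L form was not examined. Of 10 colon epithelial markers 7 passed the filter, among them EPCAM (477 and 472), while CDH1, KRT19 and KRT20 did not. KRT18 (979 and 674, -0.54), LGALS4 (-0.37) and CDX2 (0.20) differed most in that list. Of the leukocyte markers, 4 of 12 passed, with summed intensities of 623 and 614 over 10 genes with a probe set. CD3E (-0.27), MS4A1 (0.15) and CD2 (0.12) differed most, and PTPRC was below the filter (41.2 and 43.3). Of 8 fibroblast markers 5 passed, with sums of 872 and 946, and LUM (0.19), COL1A1 (0.16) and COL1A2 (0.10) differed most. All 18 biotin spike-in probe sets were higher on the knockdown array (median 0.20, from 0.05 to 0.33), which is the opposite sign to the heavy chains and of similar size. The 3' to 5' ratio of ACTB was 3.41 and 3.81. The part of these array differences in the class I values was not tested, and array and hairpin cannot be told apart.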

How the data were processed

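Expression was measured on 1 Affymetrix array for each of sh-Luci and sh-BCLAF1-L RKO cells. Biotinylated cRNA was made with a kit that primes from the 3' end, per the labels' protocols. The authors deposited intensities on a linear scale, 1 per probe set, and RMA is named in the submitters' processing notes. Program, final scaling and genome build: not given in the sources used here. The number of arrays limits the precision, and background left in dim probe sets would compress their differences.

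Intensities were taken as log2(value + 1). Gene symbols came from the platform annotation and were updated through Entrez identifiers with RefSeq (GRCh38.p14), which held all 28 member probe sets. A gene took its brightest probe set past the filter. The text names every member probe set, the 3 genes of each of 9 companion lists with the largest difference among genes past the filter, and any of these past 1.5-fold. Further genes (among them PSMB9, CD1D, MICA, MICB, NLRC5, IRF1, HLA-J and the dimmer ERAP1 set) were chosen after their values were seen. Members, lists and thresholds were chosen with earlier results of these data known. With 1 array per group, no test was possible, and counts stand beside the same share over all features. Alternatives were a pseudocount of 32, no filter or a 60th percentile filter, centring by the median or a loess curve (span 0.3), other probe set choices and other fold thresholds. The calculation was tried on simulated data with independent noise for each probe set. These held no transcripts shared between probe sets and no array or culture effect, so they do not bear on those limits. Python 3.11.15, pandas 2.3.3 and statsmodels 0.14.6 were used.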

Additional observations from a re-analysis of the deposited data

How the results depend on the processing

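No paired analysis was possible because there was a single array per group, which also left no replicate to omit. The median of the member probe sets stayed below 0 in every alternative, from -0.24 (heavy chain _x_at probe sets only, chosen after seeing the data) to -0.081 (without _s_at, _x_at and _a_at probe sets). In the latter setting, HLA-B, HLA-C, HLA-F and HLA-G had no probe set left, 4 of 6 member probe sets and 2 of 4 genes were lower, B2M differed by 0.19, and the median for loading partners and trimming was 0.15 (7 genes). The count past the fold threshold was 3 at a log2 difference of 0.322 and 0 at 2-fold. With the median over the probe sets of a gene, TAP2 differed by -0.14, TAPBP by -0.023 and HLA-C by -0.22, and 8 of 9 genes were lower. At the 60th percentile filter, the median was -0.19 for 4 colon epithelial markers and -0.27 for the 1 leukocyte marker left. Of 63 companion list medians under the alternatives, 11 had the other sign, and 60 moved by less than the SD within genes. No shared probe sets existed to include, so that alternative gave no value.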
